A study of Mus musculus with 2 samples.

Results

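The miR-130 and miR-301 family is taken here as 4 listed mouse hairpin genes, Mir130a, Mir130b, Mir301 and Mir301b. The GENCODE M21 annotation holds 1174 miRNA hairpins. The 4 were chosen by name, because the seed of their 3p arms, bases 2 to 8 from the 5′ end, lies close to the seed of the miRNAs that dominate mouse embryonic stem cells. A sequence tag was counted for a member when it matched the member's hairpin exactly over its whole length. Reads of 15 to 17 nt were taken from cells given SC1 and reads of 18 to 26 nt from cells given DMSO.

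Small RNA was sequenced from J1 cells, an established mouse embryonic stem cell line of the 129S4/SvJae strain that was grown here on gelatin with Knockout serum replacement and 1000 U/mL LIF. One culture received 1 µM SC1, a synthetic compound also known as pluripotin that supports self-renewal of mouse embryonic stem cells, for 6 h. The other received an equal volume of the solvent DMSO for 6 h. Each condition had 1 library, so no difference between SC1 and DMSO could be set against replicate error.

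A miRNA gene is transcribed into a long precursor from which Drosha cuts a hairpin, and Dicer then removes the loop to leave a duplex of a 5p and a 3p strand. Usually one strand is kept by an Argonaute protein and pairs through its seed with messenger RNAs, so miRNAs with one seed tend to repress overlapping targets. Many of the most abundant miRNAs of mouse embryonic stem cells, among them the miR-290 to miR-295 cluster, carry the bases AGUGC within or next to their seed. The miR-130 and miR-301 family carries the same bases followed by AA, and it is better known from work on blood vessel growth, on TGF-beta signalling and on tumours.

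The SC1 list held 1275599 reads of distinct tags, none longer than 17 nt, and the DMSO list held 18870345 reads of distinct tags, none shorter than 18 nt. No length was therefore present in both lists, and levels were not compared between SC1 and DMSO. In the SC1 list 1054495 reads were 15 to 17 nt long. In the DMSO list 2167140 reads (11.5%) were assigned to 483 mature miRNAs, and a level is given below as RPM, reads scaled to a total of 1000000 of these. The labelled cell type was checked in the DMSO list: 27.3% of mature reads came from 6 of the 7 listed miR-290 to miR-295 markers of embryonic stem cells (29.0% with miR-292, which is annotated under another name than listed), 0.189% from 7 fibroblast genes of which 6 had reads, and 0.241% from 6 neural genes.

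The mature sequences of the 3p arms are shown first because all the members share their seed, which is in capitals. They are written 5′ to 3′, 3 of them from RefSeq (GRCm38.p6), and that of miR-301b-3p is the most abundant exactly matching tag of the DMSO list.
miR-130a-3p: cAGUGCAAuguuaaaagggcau
miR-130b-3p: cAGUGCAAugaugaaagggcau
miR-301a-3p: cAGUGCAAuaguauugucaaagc
miR-301b-3p: cAGTGCAAtggtattgtcaaagcat

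The first 9 bases were identical in all 4. Counted from 1 at the 5′ end, miR-130a-3p differed from miR-130b-3p at 2 of 22 positions, T11A and A13G, with the base of miR-130a-3p written first. Over 25 positions miR-301a-3p differed from miR-301b-3p only by A10G. Between the miR-130 and the miR-301 sequences 9 to 11 of 22 positions differed, so the 3′ parts of the members fall into a miR-130 type and a miR-301 type.

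The 5p arms are the other strands of the same duplexes, and they are shown because one of them was the main product of its hairpin. All come from RefSeq, with bases 2 to 8 in capitals.
miR-130a-5p: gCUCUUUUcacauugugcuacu
miR-130b-5p: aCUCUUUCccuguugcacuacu
miR-301a-5p: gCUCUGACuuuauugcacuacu
miR-301b-5p: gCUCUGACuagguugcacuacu

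The 5p arms of miR-301a and miR-301b shared the seed CUCUGAC and differed at 3 of 22 positions, T10A, T11G and A12G. The 5p arms of miR-130a and miR-130b differed at 7 of 22 positions and did not share a seed.

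The hairpins show where the products lie. In each sequence below, from GENCODE M21 (GRCm38) on the strand of the gene, capitals mark the most abundant DMSO tag of each arm.
Mir130a: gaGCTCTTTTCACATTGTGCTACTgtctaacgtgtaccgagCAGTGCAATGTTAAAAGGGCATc
Mir130b: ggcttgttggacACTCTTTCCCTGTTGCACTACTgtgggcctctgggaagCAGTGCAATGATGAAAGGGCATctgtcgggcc
Mir301: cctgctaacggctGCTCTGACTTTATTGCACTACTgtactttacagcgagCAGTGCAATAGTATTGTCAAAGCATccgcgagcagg
Mir301b: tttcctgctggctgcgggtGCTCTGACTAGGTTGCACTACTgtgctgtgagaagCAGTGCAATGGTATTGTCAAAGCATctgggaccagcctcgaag

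Mir130a lies on the minus strand at chr2:84741115-84741178 and overlapped no other annotated gene. Mir130b, at chr16:17124061-17124142, and Mir301b, at chr16:17124400-17124496, are neighbours on the minus strand, with Mir301b upstream and 257 nt between them. Both fall in an intron of the protein-coding gene 2610318N02Rik on the same strand. Mir301, the gene of miR-301a, lies on the plus strand at chr11:87113004-87113089 in an intron of Ska2, whose protein acts at the kinetochore during mitosis. All coordinates are GRCm38. No member tag in either list matched a second hairpin or another annotated transcript: this held for all 7 SC1 tags and all 64 DMSO tags.

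In the DMSO cells the family gave 18510 mature reads, 0.854% of all mature miRNA reads (95% exact binomial interval 0.842 to 0.866%). This and all other intervals cover counting error only, since reads made by PCR are not independent molecules. The 3p arms held 92.2% of these reads. The hairpin of miR-130a alone gave 65.7% of the family, that of miR-130b 26.5%, that of miR-301a 7.0% and that of miR-301b 0.789%. The family was therefore carried mainly by miR-130a, and the neighbouring pair on chromosome 16 together supplied 27.3%.

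miR-130a-3p, which in human endothelial cells represses the homeobox genes GAX and HOXA5, was the most abundant member with 12073 reads. Its level was 5571 RPM (5472 to 5671), rank 38 of 483 mature miRNAs. miR-130b-3p, known in human liver cancer for promoting the growth of tumour-initiating cells, had 4755 reads and 2194 RPM (2132 to 2257), rank 61. The ratio of miR-130a-3p to miR-130b-3p was 2.54 (2.46 to 2.63). These 2 strands made up 70.7% and 27.9% of all family 3p reads.

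The miR-301 type was far less abundant on its 3p arm. miR-301a-3p, which raises NF-kappaB activity in human pancreatic cancer cells by repressing NKRF, had 126 reads and 58.1 RPM (48.4 to 69.2), rank 290. miR-301b-3p, the strand that comes from the gene next to Mir130b, had 113 reads and 52.1 RPM (43.0 to 62.7), rank 299. Their ratio of 1.12 had an interval of 0.858 to 1.45, so exact matches did not separate the level of miR-301a-3p from that of miR-301b-3p. Although Mir130b and Mir301b lie close together in one intron, the ratio of miR-130b-3p to miR-301b-3p was 42.1 (34.9 to 51.2) in exact matches. It was 13.6 (12.3 to 15.1) when reads with 3′ bases that the hairpin does not encode were counted too.

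Among the 5p arms the order was another one. miR-301a-5p led with 1170 reads, 540 RPM (509 to 572) and rank 123, and it held 81.1% of all family 5p reads. miR-130b-5p had 150 reads and 69.2 RPM (58.6 to 81.2), miR-130a-5p had 90 reads and 41.5 RPM (33.4 to 51.0), and miR-301b-5p had 33 reads and 15.2 RPM (10.5 to 21.4). Over all 8 arms the order ran from miR-130a-3p through miR-130b-3p, miR-301a-5p, miR-130b-5p, miR-301a-3p, miR-301b-3p and miR-130a-5p to miR-301b-5p. Neighbours in this order with overlapping intervals were miR-130b-5p with miR-301a-3p, miR-301a-3p with miR-301b-3p, and miR-301b-3p with miR-130a-5p.

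**Figure D1:**
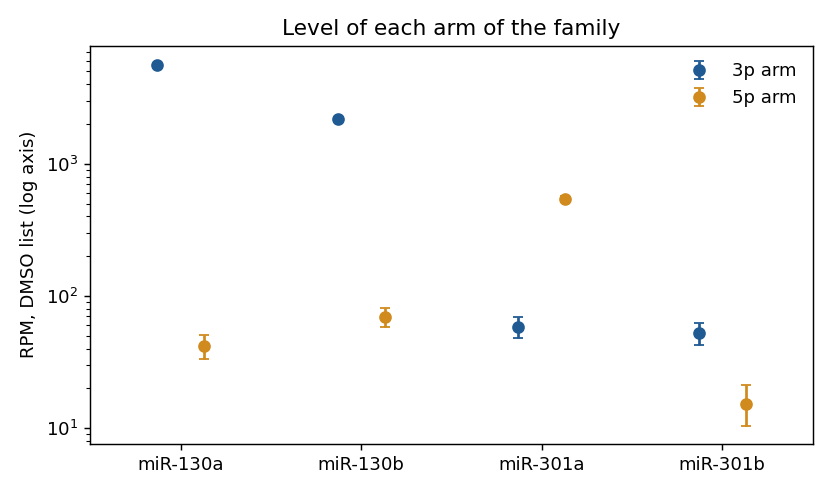
Level of each arm in the DMSO list in RPM on a log axis, with the 3p arm (blue) left of the 5p arm (orange) for each member. Points are the 1 DMSO library and bars are 95% exact binomial intervals; the 3p arm lies above the 5p arm for miR-130a, miR-130b and miR-301b, while for miR-301a the 5p arm at 540 RPM lies above the 3p arm at 58.1 RPM.

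The strand with more reads differed between the members. The ratio of 3p to 5p reads was 134 (109 to 167) for miR-130a and 31.7 (26.9 to 37.5) for miR-130b. It was 3.42 (2.31 to 5.21) for miR-301b. For miR-301a it was 0.108 (0.0889 to 0.13), so its 5p strand outnumbered its 3p strand by 9.29 to 1. Written as the share of the 3p strand, these were 99.3%, 96.9% and 77.4% for miR-130a, miR-130b and miR-301b, against 9.72% for miR-301a.

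Across the 144 mature miRNA names with both arms counted, 80 (55.6%) had more 3p than 5p reads, and the median 3p share was 62.6%. The 3p share of miR-130a was higher than that of 137 of these names, and that of miR-130b higher than that of 129. That of miR-301b was higher than that of 93 names and that of miR-301a higher than that of 23. The members thus spanned most of the range found over all miRNAs. The paralogues miR-301a and miR-301b, whose 3p strands differ by 1 base, lay on opposite sides of an equal split.

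The 5′ ends, which set the seed, were uniform in most arms. The share of reads at the most frequent start was 99.7% for miR-130a-3p, 98.1% for miR-130b-3p, 99.2% for miR-301a-3p and 99.9% for miR-301a-5p. Over the 309 mature miRNAs with at least 100 reads the median was 98.1%, with quartiles of 89.8 and 99.6%. These 4 arms lay at or above that median.

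miR-130b-5p, with 97.3%, was below the median. miR-301b-3p was less uniform, with 103 of 113 reads (91.2%, interval 84.3 to 95.7%) at its main start. The other 10 reads began 1 base later, which moves the seed by 1 base. The share at the main start was 96.7% when untemplated A or T was removed before matching, 100% in tags of at least 10 reads and 70.6% in tags of 20 to 24 nt, so its size depended on which reads were counted. In miR-130b-3p 91 of 4755 reads (1.91%) and in miR-130a-3p 34 of 12073 reads (0.282%) began 1 base later. The main tag and the tag of the later start are shown for miR-301b-3p, with bases 2 to 8 in capitals.
main start, 78 reads: cAGTGCAAtggtattgtcaaagcat
later start, 6 reads: aGTGCAATggtattgtcaaagcat

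The 3′ ends varied more than the 5′ ends, and the miR-130 type differed from the miR-301 type in length. Of the miR-130a-3p reads 64.6% were 22 nt long and 22.8% were 20 nt long, and of the miR-130b-3p reads 86.0% were 22 nt and 4.84% were 20 nt. The 2 lengths of miR-130a-3p came from ends at the same start, and they are shown with the seed in capitals.
22 nt, 7795 reads: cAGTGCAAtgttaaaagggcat
20 nt, 2743 reads: cAGTGCAAtgttaaaagggc

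miR-301a-5p resembled the miR-130 type in length, with 79.3% of reads of 22 nt and 18.9% of 21 nt. The 3p arms of the miR-301 type were longer. Of the miR-301a-3p reads 53.2% were 25 nt and 31.0% were 23 nt, and of the miR-301b-3p reads 69.0% were 25 nt and 14.2% were 23 nt. Mean lengths, with the SD between reads of the library, were 21.2 ± 1.14 nt for miR-130a-3p, 21.7 ± 0.867 nt for miR-130b-3p, 24.1 ± 1.1 nt for miR-301a-3p and 24.4 ± 0.963 nt for miR-301b-3p. Between the 3p arms of the miR-130 and the miR-301 type the means thus differed by more than the spread of either.

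A main tag of 25 nt was uncommon: 10 of 590 arms (1.69%) had one of at least 25 nt, and 290 had one of 22 nt. The most abundant tag of miR-301a-3p ended 2 nt past the annotated mature end, which 20 of 417 annotated arms (4.80%) did by at least 2 nt. Over those arms 225 (54.0%) had a main tag equal to the annotated sequence, and among the members this held for both arms of miR-130a and miR-130b and for both 5p arms of the miR-301 type. The main tag and the annotated form of miR-301a-3p are compared below, with the seed in capitals.
25 nt, 67 reads: cAGTGCAAtagtattgtcaaagcat
23 nt, annotated form, 39 reads: cAGTGCAAtagtattgtcaaagc

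The hairpins were folded with RNAfold to set these ends against the structure. Predicted free energies were -22.1, -30.1, -37 and -39.1 kcal/mol for Mir130a, Mir130b, Mir301 and Mir301b. In Mir130a, Mir301 and Mir301b the most abundant 3p tag reached 2 nt past the base paired with the start of the 5p tag, the overhang that Drosha is known to leave. In Mir130b the first base of the 5p tag was unpaired, and counted from the next paired base the overhang was also 2 nt. At the loop side, where Dicer cuts, the most abundant 5p tag reached 2 nt past the base opposite the start of the 3p tag in Mir130a, Mir130b and Mir301. In Mir301b this value was -3 nt, so the tag stopped short of that base. With the annotated end of miR-301a-3p the overhang at the Drosha side was 0 nt. Over 183 hairpins with both arms counted, 101 (55.2%) had a 2 nt overhang at that side.

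**Figure D2:**
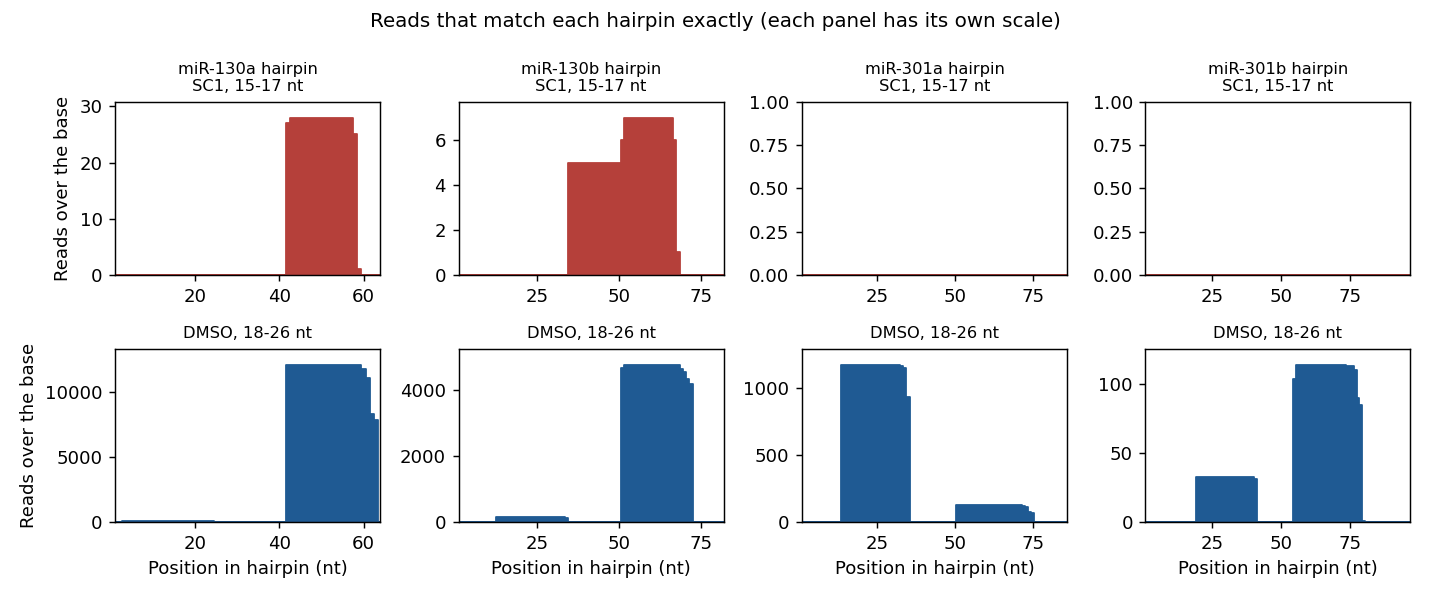
Reads over each base of the 4 hairpins, with SC1 tags of 15 to 17 nt (red) above and DMSO tags of 18 to 26 nt (blue) below, each panel on its own scale. SC1 reads cover the 3p side of miR-130a and miR-130b and, in miR-130b, a block of 5 reads between the arms, and the SC1 panels of miR-301a and miR-301b are empty; in the DMSO panels the higher block is the 3p arm except in miR-301a.

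Many DMSO tags matched a member except for 1 to 3 bases at the 3′ end that the hairpin does not encode. Such untemplated bases are known to be added to mature miRNAs by terminal nucleotidyl transferases, most often A or U. Of all miR-301b-3p reads, with and without them, 283 of 396 (71.5%, interval 66.7 to 75.9%) had untemplated bases, and in 241 of these reads they were T only. miR-301a-3p had 56 of 182 (30.8%, interval 24.2 to 38.0%), of which 45 were T only. miR-130b-3p had 11.5% (619 reads), miR-130a-3p had 9.67% (1293 reads) and miR-301a-5p had 4.72% (58 reads). Of the less abundant arms, miR-130b-5p had 2 such reads, and miR-130a-5p and miR-301b-5p had 0 beside 90 and 33 exact matches. A count of 0 allows up to 3 reads.

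Over the 309 mature miRNAs with at least 100 exactly matching reads the median share was 6.87%, with quartiles of 3.29 and 16.3%. The share of miR-301b-3p was higher than that of 303 of them and that of miR-301a-3p higher than that of 280. The minimum counts exact matches only, so miRNAs with few of these were left out. Some of those had a higher share than miR-301b-3p and others a lower one, so these ranks hold for the 309 only. The shares of miR-130b-3p and miR-130a-3p were within the quartiles. The single most abundant form of miR-301b-3p was the 25 nt tag with 1 added T, with 233 reads against 78 for the tag without it, and only 1 read in all carried the encoded C at that place. These tags are shown with the untemplated base in capitals.
miR-301b-3p, 233 reads: cagtgcaatggtattgtcaaagcatT
miR-301a-3p, 40 reads: cagtgcaatagtattgtcaaagcatT

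The added base differed between the types. In the miR-301 type 85.2% of the untemplated ends of miR-301b-3p and 80.4% of those of miR-301a-3p were T only. In the miR-130 type A and T were both frequent, and in miR-130a-3p C was too. miR-130b-3p had 246 reads of its 22 nt form plus T and 202 reads of that form plus A. Of the 1293 untemplated ends of miR-130a-3p 470 were A only, 439 C only and 269 T only. Its most abundant such tag, with 429 reads, was the 21 nt form followed by C, and its 22 nt form had 404 reads with an added A and 251 with an added T. The 2 forms of miR-130b-3p are shown, again with the untemplated base in capitals.
miR-130b-3p plus T, 246 reads: cagtgcaatgatgaaagggcatT
miR-130b-3p plus A, 202 reads: cagtgcaatgatgaaagggcatA

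Counting reads with untemplated ends changed the order of the miR-301 strands. miR-301b-3p then had 396 reads (163 RPM) and miR-301a-3p had 182 reads (74.9 RPM), whereas exact matches gave 113 and 126 reads. The 3p share of miR-301b became 92.3% and that of miR-301a 12.9%. The levels of miR-130a-3p and miR-130b-3p, 5502 and 2212 RPM on this basis, stayed within the intervals of their exact-match levels.

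Some of the untemplated ends held a C in place of the encoded last T. An added C on a form 1 nt shorter and an exchange of the last base cannot be told apart in such reads, which are part of the counts above. In miR-130a-3p 489 of 9068 reads that reached position 22 (5.39%, interval 4.94 to 5.88%) had C there, written T22C, and in miR-130b-3p 2 of 4690 (0.0426%) did. At the last position of the longer strands, T25C was found in 24 of 360 reads of miR-301b-3p (6.67%) and in 5 of 122 reads of miR-301a-3p (4.10%). Such ends were thus found in miR-130a-3p, miR-301b-3p and miR-301a-3p. In miR-130b-3p the 2 reads were as few as those of single substitutions further inside that strand, such as C1T in 2 of 4684 reads. Substitutions further inside miR-130a-3p occurred at 0.0263% per base read. Whether the 129S4/SvJae genome carries the reference base at these places was not tested.

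**Figure D3:**
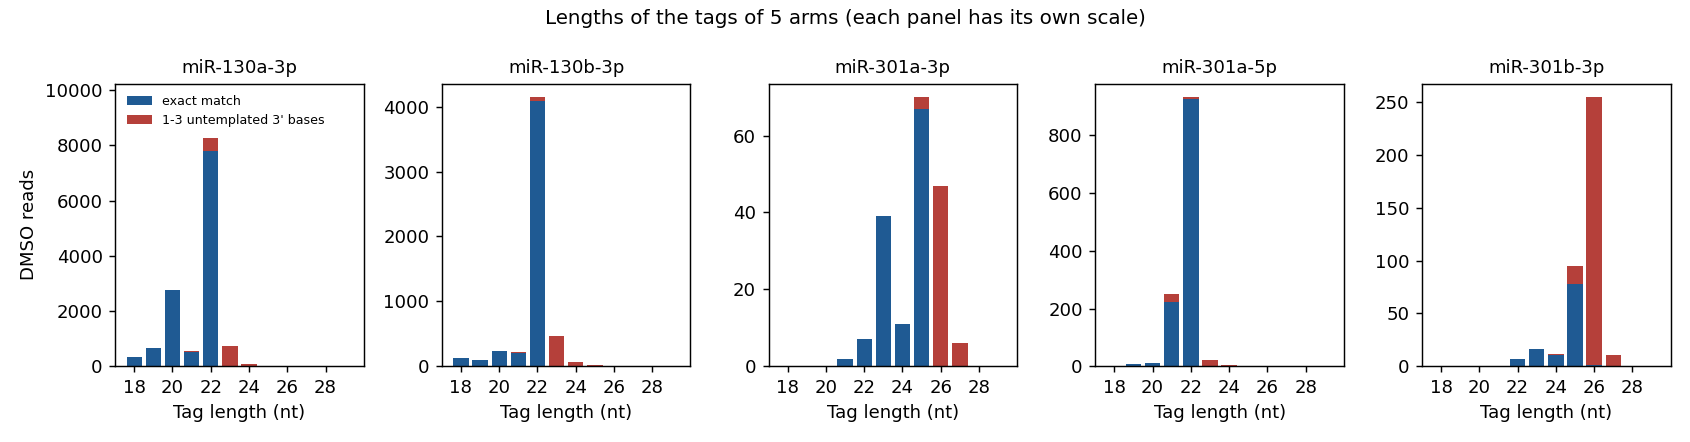
DMSO reads by tag length for the 5 arms with the results above, as exact matches (blue) and with 1 to 3 untemplated 3′ bases stacked on them (red), each panel on its own scale. miR-130a-3p, miR-130b-3p and miR-301a-5p peak at 22 nt with mostly exact matches, miR-301a-3p peaks at 25 nt, and miR-301b-3p peaks at 26 nt with untemplated reads.

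**Figure D4:**
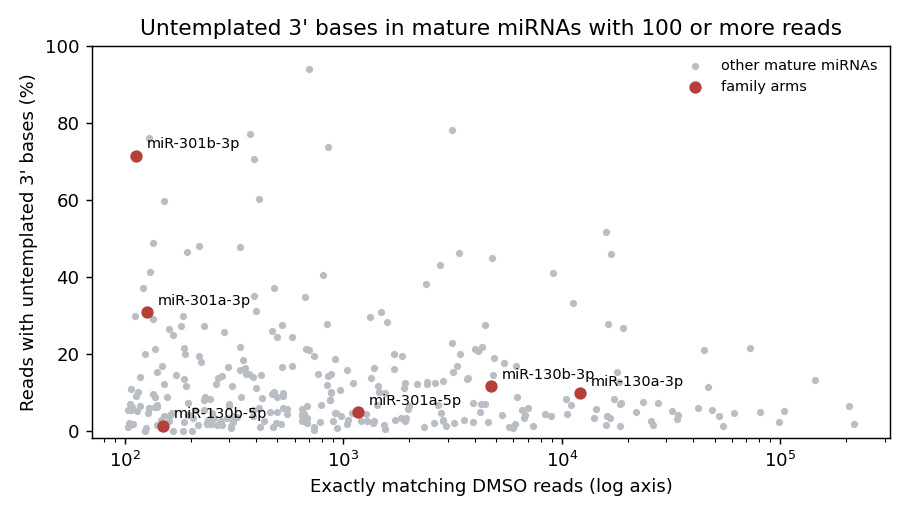
Share of reads with untemplated 3′ bases (vertical axis, percent) against exactly matching DMSO reads (horizontal log axis) for the 309 mature miRNAs with at least 100 reads. Red points are family arms and grey points all others; miR-301b-3p at 71.5% lies near the top and miR-301a-3p at 30.8% above the upper quartile, while miR-130a-3p and miR-130b-3p lie among the others.

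The miR-301 strands differ by a single base, so the bases read at that place were counted. At position 10, 128 reads carried the A of miR-301a-3p and 104 the G of miR-301b-3p. No read carried A10C, A10T, G10C or G10T. Other bases at this place were thus not detected at this depth, where a count of 0 allows up to 3 reads. A read with A and G exchanged there would match the other strand, so mixing between these strands was not tested.

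The SC1 list held 40 reads of the family in 7 tags (95% exact Poisson interval 28.6 to 54.5). The hairpin of miR-130a had 28 of them (18.6 to 40.5) and that of miR-130b had 12 (6.20 to 21). miR-301a and miR-301b had 0 SC1 reads, and a count of 0 allows up to 3. Of the 28 reads of miR-130a, 27 began at the start of the mature 3p strand and 1 began 1 base later. Of the 12 reads of miR-130b, 6 began at the 3p start, 1 began 1 base later and 5 lay between the arms. The tags at the mature starts, with the seed in capitals, and the tag between the arms are shown because they make up nearly all SC1 reads of the family.
miR-130a-3p, 17 nt, 24 reads: cAGTGCAAtgttaaaag
miR-130a-3p, 16 nt, 3 reads: cAGTGCAAtgttaaaa
miR-130b-3p, 17 nt, 5 reads: cAGTGCAAtgatgaaag
Mir130b between the arms, 16 nt, 5 reads: gtgggcctctgggaag

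Short tags from the 3p arms kept the whole seed and lacked bases at the 3′ end. Of the SC1 reads 25 of miR-130a-3p and 6 of miR-130b-3p were 17 nt long, and neither had a read of 15 nt. At 18 nt, the shortest length in the DMSO list, miR-130a-3p had 331 reads and miR-130b-3p had 121, while miR-301a-5p had 1 and the other arms had 0. The 2 arms with SC1 reads were thus those with the most DMSO reads and with the most DMSO reads of 18 nt. SC1 and DMSO counts come from different length ranges and were not set in ratio.

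The family made up 0.0750% (0.0536 to 0.102%) of the 53343 SC1 reads of 15 to 17 nt that matched any hairpin. It made up 0.850% (0.838 to 0.862%) of the 2177993 DMSO reads of 18 to 26 nt that did. These shares describe fragments in the SC1 list and full-length miRNAs in the DMSO list. An effect of SC1 and the difference in length between the lists cannot be told apart. Among the 128 miRNAs with at least 1000 DMSO reads, the median was 5 SC1 reads, and 23 had 0. miR-130a-3p had more SC1 reads than 96 of them and miR-130b-3p, with 7, more than 70. miR-301a-5p, with 1170 DMSO reads, was among those with 0.

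The 16 nt SC1 tag of Mir130b spanned exactly the 16 bases from the end of the main 5p tag to the start of the main 3p tag, which is the piece Dicer removes. Of 56 hairpins with 15 to 17 bases between their arms, Mir130b was the only one with an SC1 tag of exactly that extent. Mir130a, with 17 bases there, and Mir301, with 15, had 0 SC1 reads of such a tag. The 13 bases between the arms of Mir301b are too few for the 15 to 17 nt range. The count of 5 rests on 1 distinct tag in 1 library.

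Other miRNAs share the seed or part of it, and their levels in the DMSO list show how much of the pool the family makes up. The seed AGUGCAA is carried by 8 mature miRNAs, with miR-301b-3p taken from its DMSO tag because RefSeq held no matching sequence. Besides the 4 members these are miR-130c, miR-6341, miR-6389 and miR-721, all with 0 reads in SC1 and 0 in DMSO. All reads with this seed at its annotated place therefore came from the 4 members. Among the miRNAs compared, 43 with 22 seeds share at least 5 consecutive bases with it, and the 24 with reads held 6.61% of mature reads. miR-292-3p and miR-302a-3p, which both had DMSO reads, were missing from the comparison, so these counts and this share leave them out.

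The family's seed, at 7875 RPM, came second among the seeds compared. miR-292-3p, which was missing from the comparison, was by itself above this at 11794 RPM. The order given here therefore holds only for the miRNAs compared. First was AAGUGCU at 48906 RPM, from miR-294-3p (25217 RPM), miR-295-3p (19475 RPM) and miR-291a-3p (4193 RPM), main miRNAs of mouse embryonic stem cells. In these the shared bases AGUGC lie 1 base later than in the family. Next was AAAGUGC at 6511 RPM, from miR-93-5p (3240 RPM), miR-106b-5p (1109 RPM) and miR-17-5p (1006 RPM), which are known to speed the cell cycle. miR-130a-3p alone was thus above miR-93-5p and above miR-291a-3p.

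Seeds that share 6 bases were less abundant. CAGUGCA, the seed of miR-152-3p (685 RPM), miR-148b-3p (671 RPM) and miR-148a-3p (300 RPM), reached 1656 RPM. AAGUGCA, from miR-291b-3p, had 444 RPM and GUGCAAA, from miR-19b-3p (428 RPM) and miR-19a-3p (11.1 RPM), had 439 RPM. Each was below miR-130b-3p alone. The 4 other seeds with reads among those compared, from miR-290a-3p, miR-300-3p, miR-1960 and miR-6399, had 157, 84.9, 12.5 and 8.31 RPM. None of these values includes miR-292-3p.

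**Figure D5:**
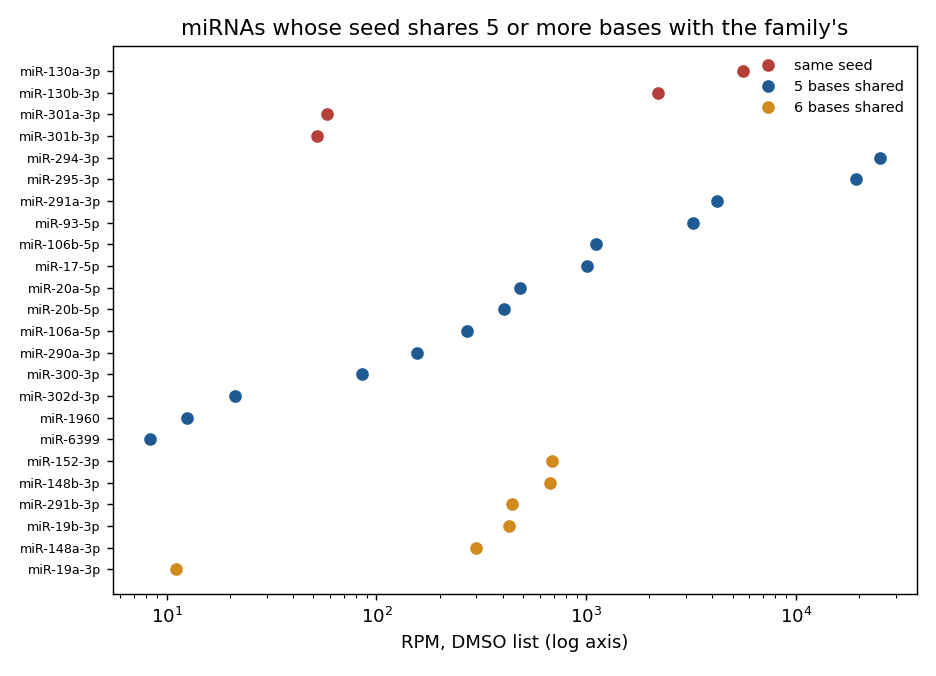
Level in the DMSO list (RPM, log axis) of each of the 24 mature miRNAs with reads among those compared, whose seed shares at least 5 consecutive bases with AGUGCAA. Red points have the same seed, orange points share 6 bases and blue points share 5. Among the miRNAs shown, miR-130a-3p at 5571 RPM is exceeded only by miR-294-3p and miR-295-3p. miR-292-3p, which was missing from the comparison and is not shown, was higher at 11794 RPM.

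The length profiles of the main arms were compared with those of the miRNAs with at least 1000 reads, as the percentage of reads that would have to change length to turn one profile into the other. The profile most like that of miR-130a-3p was that of miR-25-3p, with a difference of 10.9%, followed by miR-210-3p (19.8%) and miR-130b-3p (21.6%), against a median of 51.4% over 127 miRNAs. For miR-130b-3p the nearest were miR-293-3p (6.14%), miR-185-5p (6.16%) and miR-26b-5p (6.24%), against a median of 58.0%. For miR-301a-5p they were miR-106b-3p (2.53%), miR-487b-3p (5.10%) and miR-744-5p (6.51%), against a median of 50.9%. For miR-301b-3p they were miR-182-5p (28.4%), miR-541-5p (34.4%) and miR-342-3p (58.5%), against a median of 86.7% over 128 miRNAs. Among the miRNAs compared, the 25 nt profile of miR-301b-3p thus had fewer close neighbours than the 22 nt profiles of the others. The minimum of 1000 reads applied to the other miRNAs only, and the profile of miR-301b-3p rests on 113 reads. miR-301a-3p was not compared because only the main arm of each member was profiled. Reads with untemplated ends were not part of the profiles.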

How the data were processed

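Each condition has 1 deposited list that pairs every distinct tag with the count of its reads. These counts were used as the authors gave them, with no scaling of theirs. A final line of the DMSO list that holds a sum was skipped. Per the submitters' processing notes the build was mm9, while adapter, trimming, length filter and aligner were not given in the sources used here. Because mm9 is not the build of the reference, no coordinate was taken from the lists: tags were matched exactly, on the sense strand, to the hairpins of GENCODE M21 (GRCm38), and coordinates come from that annotation. Sequences and seeds of mature miRNAs are from RefSeq (GRCm38.p6), which held a matching sequence for 7 of the 8 member arms.

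Each arm was placed at its leading DMSO tag, which needed at least 10 reads, and took tags of 18 to 26 nt with a start within 2 nt and an end within 4 nt of it. Tags shared by several hairpins were split equally. Untemplated ends were up to 3 nt after a templated part of at least 16 nt, in tags that matched no hairpin whole. For Mir130a the annotated hairpin ends 1 nt past the main tag, so longer templated ends could not be recognised there. Intervals are exact binomial (Clopper-Pearson) or Poisson at 95%, from scipy 1.17.1 under Python 3.11.15; folds are from RNAfold 2.7.2. The assignment was run on simulated reads only as a check of the code. These were exact pieces of the same arms, with ends moved inside the same windows. This could not test reads with errors, with untemplated ends or from other RNAs.

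With 1 library per condition and no tag length in both lists, no test was made. All members were named, all miRNAs with their seed, the 3 highest of each near seed, and the 3 nearest length profiles among miRNAs with at least 1000 reads. miR-292-3p and miR-302a-3p were missing from the comparison of seeds. The members and lists were chosen with earlier results of these data known. The listed marker Mir292a is annotated as Mir292 and was not counted in the marker share, except where stated. Other matching rules were tried, and counting untemplated ends was added after seeing the data.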

Additional observations from a re-analysis of the deposited data

Results flagged for a closer look

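Reads that the exact-match counts leave out were found for 5 of the 8 arms in the DMSO list, above the 3 reads that a count of 0 allows. With untemplated 3′ bases there were 1293 reads of miR-130a-3p, 619 of miR-130b-3p, 56 of miR-301a-3p, 58 of miR-301a-5p and 283 of miR-301b-3p. In the SC1 list, whose tags are shorter than mature miRNAs, 40 reads of 15 to 17 nt matched the family. What these reads come from was not tested.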

How the results depend on the processing

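The family share of 0.854% in DMSO became 0.951% with the most abundant tag of each arm only, 0.867% with shared tags left out, 0.840% with tags of 20 to 24 nt and 1.35% with distinct tags in place of reads. It stayed inside its interval under the other 6 settings tried. The 40 family reads in SC1 became 35, 31 or 37 under other matching rules, inside their interval, and 7 as distinct tags. The main strand of each hairpin was kept in 39 of 40 recomputed shares; counted as distinct tags, both strands of miR-301a were equal at 50%. For miR-301a-3p against miR-301b-3p the log2 ratio of 0.16 became -1.12 with untemplated ends counted and 0.80 with tags of 20 to 24 nt. With tags of 20 to 24 nt, which leave out their 25 nt forms, miR-301b-3p had 16.7 RPM and miR-301a-3p 28.9 RPM, and the 3p share of miR-301b was 50.7%. No paired analysis was possible because SC1 and DMSO are 1 library each.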

Other observations

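Substitutions inside the strands were rare. In miR-130b-3p they occurred at 0.0240% per base read and in miR-301a-5p at 0.0272%. The highest count relative to depth was C10T in miR-130b-5p, in 3 of 149 reads, chosen after its value was seen. Of the DMSO reads on the 4 hairpins 7 lay outside the arms as defined. No tag of 27 to 44 nt matched a member hairpin, and no tag in either list matched one in reverse.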
